A study of Mus musculus with 12 samples.

Results

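The fast-twitch contractile genes examined here are 10 genes of the sarcomere and calcium pump of fast muscle fibres: Myh4, Myh1, Myh2, Tnni2, Tnnt3, Tnnc2, Mylpf, Myl1, Actn3 and Atp2a1. They were taken by gene symbol from the table of normalised counts, in which all 10 were found among 47730 features. Transcripts were measured by RNA-seq in leg muscle, which combined gastrocnemius and plantaris, and in testis of male mice that were either BckdkM/M, which carry the mutant Bckdk allele on both chromosomes and are titled KO, or wild type (Bckdk+/+). All mice shared the C57BL/6J background after at least 10 generations of backcrossing, were 5 to 6 months old, were freely fed and were killed between ZT6 and ZT7, and the tissues were flash frozen. The labels used here do not say what the lesion of the mutant allele is, and none of them names a Cre or a transgene promoter. Each of the 4 groups had 3 libraries. Columns carry mouse numbers, given here as letters: D, F and G for BckdkM/M muscle, A, B and C for the wild type in both tissues, and D, E and F for the testis libraries labelled BckdkM/M.

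Counted reads ranged between 14566523 and 15783292 in the muscle libraries and between 12852427 and 15795722 in the testis libraries. Bckdk, the kinase that switches off branched-chain ketoacid dehydrogenase, had 14.8, 14.3 and 12.4 normalised counts in BckdkM/M muscle, against 2214, 2421 and 2627 in wild-type muscle. In testis it had 138, 119 and 114 in the libraries labelled BckdkM/M, against 68.0, 73.3 and 71.0 in wild-type testis, which goes against the labels (log2 difference 0.79, limma adjusted p = 0.349). For that reason the testis libraries of the mutant group are called "labelled BckdkM/M" throughout. Bckdk alone does not settle whether these labels are right. The tissue labels matched their markers: reads of the 10 genes made up 9.38% to 13.7% of a muscle library and 0.00182% to 0.114% of a testis library, and 13 germ cell genes summed to between 1317 and 3509 normalised counts in muscle, against 232408 to 262197 in testis. The p-values set a difference against the spread between libraries in these small groups. In limma that spread is moderated by the spread of all genes tested. The main fits across tissues treat muscle and testis of the same mouse as independent.

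In a sarcomere, myosin heavy chains of the thick filament pull on actin, and each heavy chain carries an essential and a regulatory light chain. The troponin complex of the thin filament holds the calcium switch: troponin C binds calcium, troponin I inhibits and troponin T anchors the complex to tropomyosin. Fast and slow fibres use different genes for most of these proteins, and in mouse gastrocnemius and plantaris most fibres are fast, with Myh4 (type IIb), Myh1 (type IIx) and Myh2 (type IIa) as the fast heavy chains of adult limb muscle and Myh7 as the slow one.

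The 3 heavy chain genes lie side by side on the forward strand of chromosome 11 in GRCm38: Myh2 at chr11:67171027-67197517, Myh1 at chr11:67200052-67224575 and Myh4 at chr11:67238029-67260446. These are the GENCODE M21 gene bounds. RefSeq starts the genes at 67171027 for Myh2, 67200102 for Myh1 and 67237812 for Myh4, so the annotations differ for the last 2. The 250 bases before the RefSeq starts are printed because the 3 genes share a block there and differ widely in level in muscle (GRCm38.p6, forward strand; chr11:67237562-67237811 for Myh4, chr11:67199852-67200101 for Myh1 and chr11:67170777-67171026 for Myh2). Capitals mark the longest block of letters that all 3 share.
Myh4: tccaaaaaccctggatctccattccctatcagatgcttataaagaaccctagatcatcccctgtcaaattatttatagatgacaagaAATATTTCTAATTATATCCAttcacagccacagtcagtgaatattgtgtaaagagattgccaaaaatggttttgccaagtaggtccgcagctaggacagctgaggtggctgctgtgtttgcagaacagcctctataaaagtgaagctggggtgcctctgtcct
Myh1: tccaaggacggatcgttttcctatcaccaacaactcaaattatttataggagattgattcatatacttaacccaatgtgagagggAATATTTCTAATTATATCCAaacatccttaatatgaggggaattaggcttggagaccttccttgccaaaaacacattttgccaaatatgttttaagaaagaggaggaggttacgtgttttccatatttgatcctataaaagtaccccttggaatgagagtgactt
Myh2: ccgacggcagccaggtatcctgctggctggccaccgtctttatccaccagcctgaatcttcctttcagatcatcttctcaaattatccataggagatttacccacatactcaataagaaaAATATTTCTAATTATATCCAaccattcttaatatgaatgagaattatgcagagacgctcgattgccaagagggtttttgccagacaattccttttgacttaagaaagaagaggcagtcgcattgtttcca
The block is 20 bases long and begins 163 bases before the RefSeq start of Myh4, 165 before that of Myh1 and 130 before that of Myh2. Within windows of 300 bases around all starts in the RefSeq table, searched on both strands, it was found in 3 of 32851 promoters (0.00913%). Those are the promoters of the 3 genes that defined the block, so these hits were given in advance. A TATAAAA motif, which does not overlap the block, was in the windows of these 3 genes and in 5.48% of all promoters. In Myh4 and Myh1 it lies before the RefSeq start, and in Myh2 after it, outside the printed bases. Of the 10 genes, 7 have a promoter in the table and the other 4 of those lack the motif. CANNTG, the E-box letters, was in 5 of the 7 and in 72.3% of all promoters. These matches describe letters only.

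The coding sequences of the heavy chains also share long identical runs, which bears on how reads can be assigned to them. The longest run between Myh1 and Myh2 is 268 bases, which is longer than a read of 150 bases, and begins at coding base 2711 in both genes (GENCODE M21, GRCm38, sense strand).
Myh1 and Myh2: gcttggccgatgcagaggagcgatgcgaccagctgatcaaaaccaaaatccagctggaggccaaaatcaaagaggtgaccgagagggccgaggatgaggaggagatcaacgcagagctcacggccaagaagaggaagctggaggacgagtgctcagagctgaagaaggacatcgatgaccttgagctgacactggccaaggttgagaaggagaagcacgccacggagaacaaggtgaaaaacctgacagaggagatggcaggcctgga
Myh1 and Myh4 share a run of 161 bases, Myh2 and Myh4 one of 146, and all 3 one of 140. Of the stretches of 150 bases in each transcript, 2.49% in Myh1, 2.06% in Myh2 and 0.51% in Myh4 also occurred in another gene. Of stretches of 50 bases, the shares were 26.7%, 26.9% and 18.9%. How the authors' counting treated reads with several matches is not given in the sources used here. These shares do not bound the error of a count, because Myh4 is far more abundant than Myh1 and Myh2. Myl1 shares 2.75% of its stretches of 150 bases, and 32.1% of those of 50 bases, with the pseudogene Mylf-ps. None of the other 6 genes shares any stretch of 150 bases.

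Levels within muscle were compared per kilobase of transcript, the authors' normalised counts divided by the length of one GENCODE M21 transcript of the gene. In BckdkM/M muscle the order was Tnnt3, Tnnc2, Tnni2, Mylpf, Myl1, Atp2a1, Myh4, Actn3, Myh1 and Myh2. In wild-type muscle it was the same except that Myl1 stood ahead of Mylpf. Tnnt3, the fast troponin T, had 322061 ± 56832 normalised counts per kb in BckdkM/M muscle and 361225 ± 73004 in wild-type muscle (SD, n = 3 each). At the low end, Myh2 had 1971 ± 522 per kb in BckdkM/M muscle and 2055 ± 907 in wild-type muscle. The ranges of neighbours in the BckdkM/M order overlapped except for Tnnc2 over Tnni2, Myl1 over Atp2a1, Actn3 over Myh1 and Myh1 over Myh2. In wild-type muscle only Tnnt3 with Tnnc2, Tnni2 with Myl1, and Myl1 with Mylpf overlapped.

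None of the 10 genes differed between the genotypes in muscle at an adjusted p below 0.05 (limma on log2(normalised count + 1), Benjamini-Hochberg over 16246 genes, of which 0.0369% were called). None reached an unadjusted p below 0.05 either, against 9.52% of all genes tested, and edgeR and DESeq2 on recovered reads also called none. The mean was lower in BckdkM/M muscle for 9 of the 10 genes, against 55.5% of all genes tested. The median log2 change of the 10 was -0.16, beside -0.04 over all genes tested. In none of the 10 did the 3 BckdkM/M libraries lie apart from the 3 wild-type libraries, a separation that 14.0% of all genes tested showed.

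Among the heavy chains, Myh4 had 589555, 450689 and 275412 normalised counts in BckdkM/M muscle (D, F, G), against 575299, 608057 and 673499.6 in wild-type muscle (A, B, C). Library D lay within the wild-type range, and F and G lay below it. The means of 438552 ± 157423 and 618952 ± 49999 (SD, n = 3 each) gave a log2 change of -0.56 (SE 0.48, limma adjusted p = 0.672). Myh1 had 46158, 29485 and 19824 in BckdkM/M muscle, against 35853, 47599.6 and 28199 in wild-type muscle. The highest library of each genotype was close to that of the other, the lowest was G, and the log2 change was -0.28 (SE 0.31, limma adjusted p = 0.747). Myh2, the least abundant of the 3, had 9949, 15644 and 10370.4 in BckdkM/M muscle, against 10024, 18827 and 8654 in wild-type muscle. All 3 BckdkM/M values lay inside the wild-type range, and the log2 change was -0.01 (SE 0.28, limma adjusted p = 0.996).

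**Figure D1:**
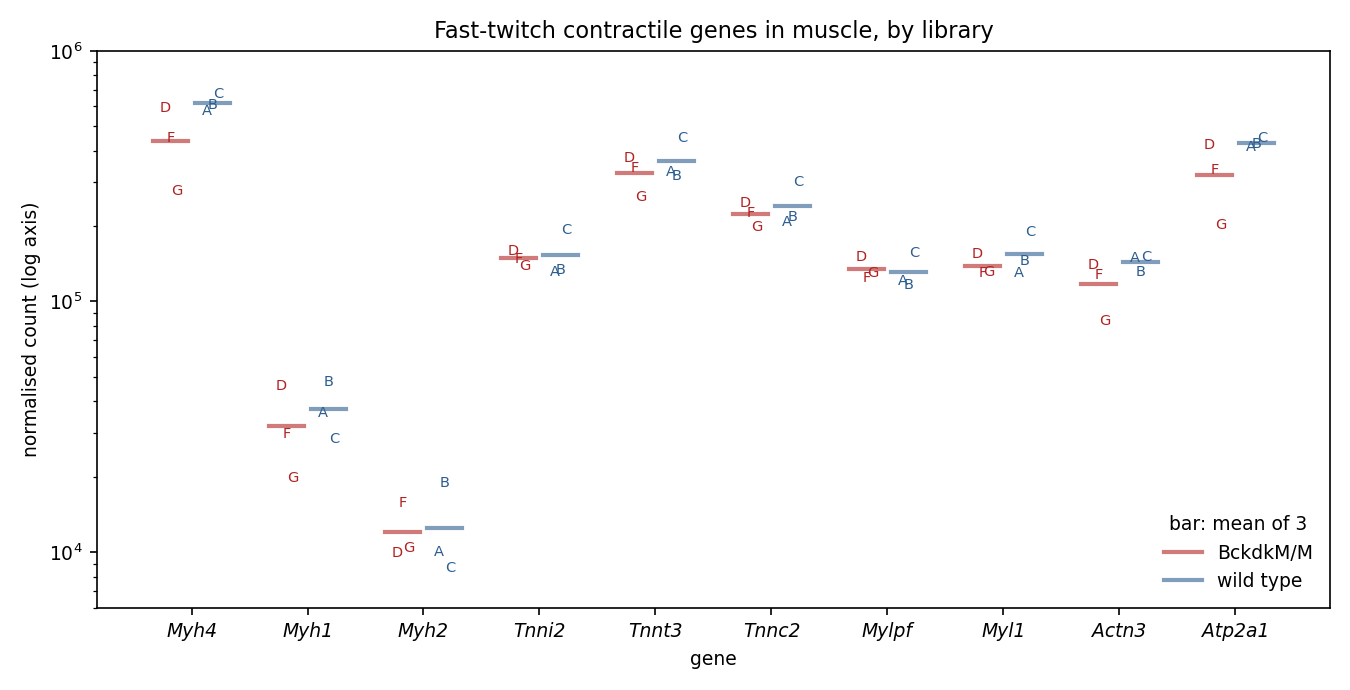
Normalised counts (log axis) of the 10 genes in the 3 BckdkM/M muscle libraries (D, F, G, left of each pair) and the 3 wild-type muscle libraries (A, B, C, right). Letters are libraries and bars are group means; the groups overlap for every gene, and G is the lowest BckdkM/M library for 7 of the 10 genes.

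In the thin filament, the log2 changes of the 3 troponins lay between -0.16 and -0.02. Tnni2, the fast troponin I, had 159333, 148043 and 138775 normalised counts in BckdkM/M muscle, against 130789, 133912 and 193496 in wild-type muscle. The BckdkM/M values lay within the wild-type range, and the log2 change of -0.02 (limma adjusted p = 0.989) changed sign to 0.03 with scaling by the median of ratios and to 0.03 with TMM. Tnnt3 had 372379, 339561 and 261007 in BckdkM/M muscle, against 327259, 315626 and 448375 in wild-type muscle. Only G lay below the wild-type range, and the log2 change was -0.16 (limma adjusted p = 0.901). For Tnnc2, the fast troponin C, BckdkM/M muscle had 247326, 224348 and 198030.1 and wild-type muscle 207048, 216477 and 298435. Here too only G lay below the wild-type range, and the log2 change was -0.09 (limma adjusted p = 0.935). Wild-type library C was the highest of all 6 for all 3 troponins.

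Mylpf, the fast regulatory light chain, was the only gene with a higher mean in BckdkM/M muscle. It had 150385, 123647 and 130066 normalised counts in BckdkM/M muscle, against 121052, 116835 and 156695 in wild-type muscle, with every BckdkM/M value inside the wild-type range and a log2 change of 0.04 (limma adjusted p = 0.967). Myl1, the fast essential light chain, had 154471, 129435 and 130733 in BckdkM/M muscle, against 130042, 145597 and 189974 in wild-type muscle. F lay just below the wild-type range, D and G lay inside it, and the log2 change was -0.15 (limma adjusted p = 0.874).

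Actn3 encodes the alpha-actinin that cross-links actin at the Z-disc of fast fibres. It had 140092, 127454 and 83729.9 normalised counts in BckdkM/M muscle, against 148440.0, 130788 and 150432 in wild-type muscle. D lay inside the wild-type range and F and G below it, and the log2 change was -0.32 (SE 0.31, limma adjusted p = 0.711). Atp2a1, the fast calcium pump of the sarcoplasmic reticulum, had 419083, 334566 and 202170.4 in BckdkM/M muscle, against 412179.7, 424258 and 450505 in wild-type muscle. Again D lay inside the wild-type range and F and G below it, and the log2 change was -0.49 (SE 0.44, limma adjusted p = 0.685).

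The 3 BckdkM/M libraries were not alike. Taking each library's log2 difference from the wild-type mean, the median over the 10 genes was 0.03, -0.12 and -0.36 in BckdkM/M libraries D, F and G and -0.12, -0.10 and 0.20 in wild-type libraries A, B and C. Without G, the median log2 change of the 10 genes was -0.01, and that of Myh4 was -0.26. Without D, the median was -0.25, with -0.81 for Myh4 and -0.72 for Atp2a1. F and G were also left out together, because earlier results of these data had shown more islet transcripts in them, and these are the libraries that lay lowest for Myh4, Actn3 and Atp2a1. The median was then 0.03, with the lone library D assumed to vary like the wild-type libraries. Over all genes tested, between 3 and 497 were called under the alternatives, with 497 when D was left out, and none of the 10 was called in any of them.

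Differences from the wild-type mean went with transcript length in several libraries, G among them. Of the 10 genes, Myh4, Myh1, Myh2, Actn3 and Atp2a1 have transcripts of at least 2 kb and the other 5 shorter ones. The median log2 difference from the wild-type mean in G was -0.88 for the longer 5, among which Myh2 stood apart at -0.18, and -0.23 for the shorter 5. In F these medians were -0.30 and -0.08, and in D -0.03 and 0.06. Other protein-coding genes with a muscle mean of at least 1000 moved the same way in G. The median was 0.39 for 208 genes under 1 kb. It was -0.19 for 856 genes of 2 to 4 kb and -0.40 for 313 genes of 6 kb or more. In G each of the 10 genes except Myh2 lay below the median of other genes of its length class. Tnni2 stood at -0.11 beside 0.39, Atp2a1 at -1.08 beside -0.19 and Myh4 at -1.17 beside -0.40. For the shortest and the longest of these classes the medians were 0.16 and -0.29 in F, and 0.30 and -0.04 in wild-type C. Mitochondrially encoded genes took 11.5% of the reads in G, against 7.65% to 8.21% in the other 5 muscle libraries. The RNA quality number was given only as at least 7.2 for every library. The part of transcript length, RNA quality and mitochondrial reads in the differences between genotypes was not tested.

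**Figure D2:**
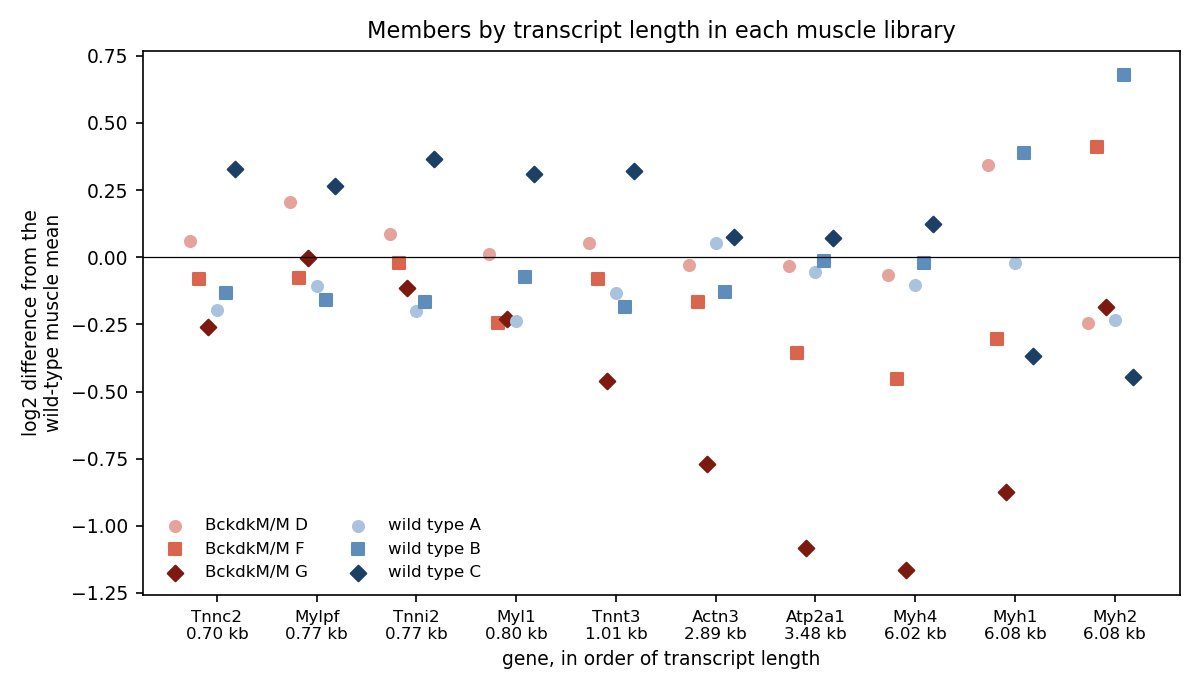
Log2 difference of each gene from its wild-type muscle mean (y axis) in every muscle library, with genes in order of transcript length in kb (x axis) and 1 symbol per library. In G, Actn3, Atp2a1, Myh4 and Myh1 sit between -0.77 and -1.17, and the 5 genes under 2 kb between 0.00 and -0.46.

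The composition of the heavy chain pool does not depend on how a library was scaled. Myh4 made up 91.2%, 90.8% and 89.9% of the transcripts of Myh1, Myh2, Myh4 and Myh7 per kb in BckdkM/M muscle, against 92.7%, 90.0% and 94.9% in wild-type muscle. Library B lay among the BckdkM/M values and the other wild-type libraries lay above them. The means of 90.7% ± 0.660 and 92.5% ± 2.41 (SD, n = 3 each) differed by -1.87 percentage points (exact permutation test, two-sided, p = 0.3). The Myh1 share was 7.07%, 5.88% and 6.40% in BckdkM/M muscle, against 5.71%, 6.97% and 3.93% in wild-type muscle (exact permutation p = 0.4). Shares of Myh2 were 1.52%, 3.12% and 3.35% in BckdkM/M muscle and 1.60%, 2.76% and 1.21% in wild-type muscle (exact permutation p = 0.3). Myh7 took 0.173%, 0.207% and 0.307% in BckdkM/M muscle, against 0.00354%, 0.238% and 0.0110% in wild-type muscle (exact permutation p = 0.3). Adjusted over the 4 genes, all were p = 0.4, and 3 libraries against 3 cannot give an exact p below 0.1.

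**Figure D3:**
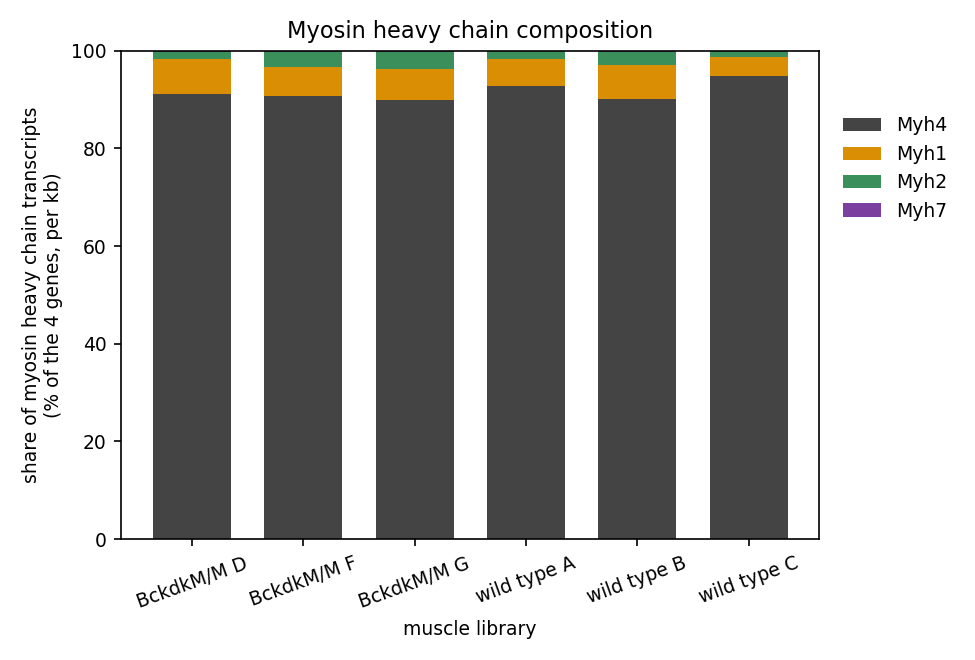
Share of each heavy chain gene (% of Myh4, Myh1, Myh2 and Myh7 per kb) in each muscle library, BckdkM/M left and wild type right. Myh4 makes up 89.9% to 94.9% in every library, and Myh7, at under 0.4%, is too thin to see.

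Each fast gene was also set against its slow counterpart in the same library, in 8 pairs. The log2 ratio of fast over slow was lower on average in BckdkM/M muscle in 8 of 8 pairs, and in each pair the groups overlapped. The mean of the 8 log2 ratios was 8.28, 7.77 and 7.39 in BckdkM/M libraries D, F and G, against 10.94, 7.78 and 10.18 in wild-type libraries A, B and C. Wild-type B lay between D and F, and A and C lay above all 3. The difference of the group means, 7.82 ± 0.45 and 9.63 ± 1.65 (SD, n = 3 each), was -1.82 (exact permutation test, two-sided, p = 0.2). Single pairs differed by between -3.41, for the 3 fast heavy chains over Myh7, and -0.32, for Actn3 over Actn2, with exact permutation p between 0.2 and 0.4 and none below 0.343 after adjustment over the 8 pairs.

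Slow genes of these pairs differed between the wild-type libraries. Myh7, the slow heavy chain, had 1159.8, 1066 and 975 normalised counts in BckdkM/M muscle, against 22.8, 1662 and 80.9 in wild-type muscle. Tnni1, the slow troponin I, had 193, 240.4 and 315 in BckdkM/M muscle, against 25.0, 221 and 28.2 in wild-type muscle. In both genes wild-type A and C were far below the other 4 libraries and wild-type B was not. Tnnt1, the slow troponin T, had 449, 633 and 716 in BckdkM/M muscle, against 47.8, 544 and 114 in wild-type muscle, where A and C were again the lowest of the 6 libraries. Of the 8 counterparts 7 had a higher mean in BckdkM/M muscle and none was called by limma. All but Actn2 and Atp2a2, 6 genes, had an unadjusted limma p below 0.05, against 9.52% of all genes tested. The median log2 change of the 8 was 1.87. The log2 change was 2.06 for Myl3, 1.72 for Tnnc1, 1.51 for Myl2, 0.42 for Atp2a2 and -0.01 for Actn2. In bulk tissue, fewer fibres of a type and less RNA per fibre cannot be told apart.

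**Figure D4:**
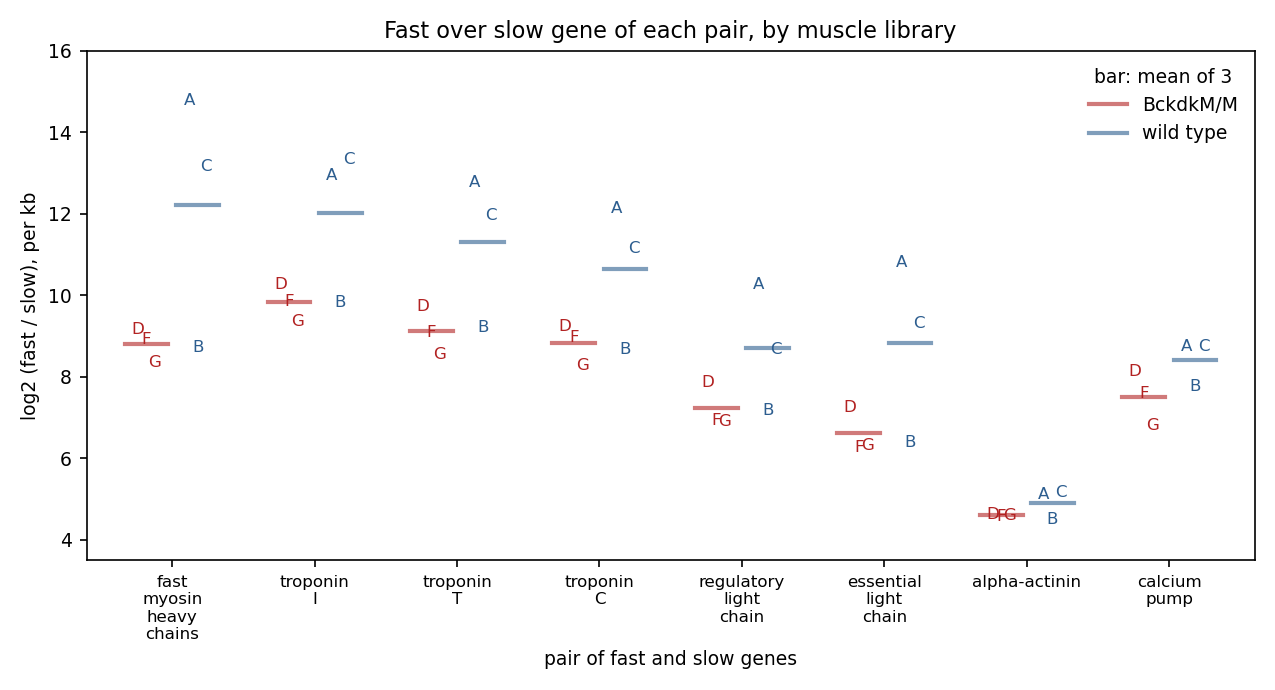
Log2 ratio of fast over slow gene, per kb, for each of the 8 pairs (x axis) in BckdkM/M libraries D, F and G (left) and wild-type libraries A, B and C (right), with bars for group means. Wild-type B lies near the BckdkM/M libraries in each pair, and A and C lie higher.

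Other genes of fast fibres gave a mixed picture. Of 12 further fast-fibre genes, none was called, 5 had a higher and 7 a lower mean in BckdkM/M muscle, and the median log2 change was -0.08. Mylk2, the kinase that phosphorylates the regulatory light chain in skeletal muscle, had 17910.2, 13136 and 10191 normalised counts in BckdkM/M muscle, against 21744, 23754 and 26582 in wild-type muscle. All 3 BckdkM/M values lay below all 3 wild-type values, as in 3 of the 12 genes, beside 14.0% of all genes tested whose groups did not overlap in either direction. The log2 change was -0.84 (SE 0.22, limma adjusted p = 0.519). The other genes whose groups did not overlap, Cacna1s, the voltage sensor of the T-tubule, and Ryr1, the calcium release channel it opens, had log2 changes of -0.60 and -0.57 (limma adjusted p = 0.519 and 0.534). Their transcripts are 6.25 and 15.4 kb long. In the class of 6 kb or more described above, the median log2 difference was -0.03, -0.29 and -0.40 in D, F and G. The part of length in these changes was not tested. Mybpc2, the fast myosin binding protein C, had a log2 change of -0.39 (limma adjusted p = 0.615).

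Among 13 regulators that promote or restrict the fast programme, none was called, 1 had a higher and 12 a lower mean in BckdkM/M muscle, and the median log2 change was -0.19. Sox6, which represses slow fibre genes, had 2292, 1370.1 and 1119 normalised counts in BckdkM/M muscle, against 2322, 2297 and 2154 in wild-type muscle. D lay within the wild-type range and F and G lay below it, and the log2 change was -0.57 (limma adjusted p = 0.519). Eya4, a transcriptional coactivator, had a log2 change of -0.40 (limma adjusted p = 0.519). Six4, a homeobox factor, had a log2 change of -0.19 (limma adjusted p = 0.609). A further list held 13 muscle genes, most of them of the sarcomere, that are in neither the fast nor the slow lists. Of these 13, 2 had a higher and 11 a lower mean, with a median of -0.20 and none called. In this list Actc1, the cardiac actin, had 5299.5, 5596 and 6279 in BckdkM/M muscle, against 2867, 5213 and 3750.1 in wild-type muscle, a log2 change of 0.58 (limma adjusted p = 0.519). Myom1, Myom2 and Tcap, of the M-band and the Z-disc, had log2 changes of -0.37, -0.32 and -0.34, with limma adjusted p between 0.552 and 0.597.

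Transcripts of other cell types differed between the muscle libraries. The 9 adipocyte genes summed to between 29589 and 90466 normalised counts in BckdkM/M muscle, with the highest in G, against 11194 to 43096 in wild-type muscle. Sums of 12 islet genes were 14059, 33152 and 31169 in D, F and G, against 13725 to 16229 in wild-type muscle. No gene of either list was at 0 in all muscle libraries, and 8 of 9 adipocyte and 12 of 12 islet genes had a higher mean in BckdkM/M muscle, none of them called by limma. The part of these transcripts in the values of the 10 genes was not tested.

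Of the 10 genes 4 lie on chromosome 7, as does Bckdk (chr7:127904082-127910221, GRCm38). Mylpf (chr7:127208890-127214298) is 0.69 Mb from it and Atp2a1 (chr7:126445858-126463108) 1.44 Mb, while Tnni2 (chr7:142441808-142444410) and Tnnt3 (chr7:142498836-142516009) are 14.53 and 14.59 Mb away. Their log2 changes in muscle were 0.04, -0.49, -0.02 and -0.16 in that order. Tnnc2 lies at chr2:164777161-164779967, Myl1 at chr1:66924295-66945404 and Actn3 at chr19:4861216-4877909.

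Several of the genes overlap others on the opposite strand, and how strand was treated in counting is not given in the sources used here. Ube2c shares 592 exon bases with Tnnc2, and its normalised count was 93.3% to 99.3% of that of Tnnc2 in every muscle library. Rabep2 shares 763 exon bases with Atp2a1 and stood at 34.3% to 47.4% of it. Myhas shares 515 exon bases with Myh1 and stood at 23.8% to 47.7%, and 9430073C21Rik shares 237 with Myh2 and stood at 11.5% to 37.5%. Reads of such pairs cannot be told apart in these counts.

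Between wild-type muscle and wild-type testis, all 10 genes were higher in muscle and called by limma, beside 87.9% of 19994 genes tested that were called and 37.3% that were called higher. Log2 differences ranged between 8.60 for Actn3 and 11.08 for Tnnt3, with a median of 9.88 and limma adjusted p between 1.71e-06 and 0.00205. Myh4 had 618952 ± 49999 normalised counts in wild-type muscle and 1763 ± 1925 in wild-type testis (SD, n = 3 each). The median was 7.92 without wild-type testis B.

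The testis values of the 10 genes stayed under 1% of the wild-type muscle mean in every library, and for all 10 wild-type B was the lowest library and A the next. Myh4 had 3891, 3523 and 3545 normalised counts in the libraries D, E and F labelled BckdkM/M, against 1464, 5.00 and 3821 in the wild-type testes. Wild-type C lay with the labelled BckdkM/M libraries, A was lower and B was near 0. As a percentage of the wild-type muscle mean, the median over the 10 genes was 0.647, 0.546 and 0.557 in D, E and F, against 0.265, 0.00762 and 0.630 in A, B and C. In library B, Tnni2 had 0 reads, which allows up to 2.50 normalised counts (3 reads, counting error only), while Actn3 stood at 122 and Myh1 at 36.6 normalised counts. Of the further list of 13 muscle genes, most of them of the sarcomere, 12 also had a higher mean in the labelled BckdkM/M libraries. The median log2 difference of the 13 was 0.85 and none was called by limma. Ckm and Acta1 of that list are given as examples chosen after their values were seen. Ckm, the creatine kinase of muscle, had 1953, 1762 and 1885 in the labelled BckdkM/M libraries, against 942, 75.8 and 2048 in wild-type testis. Acta1, the skeletal actin, had 2586, 2363 and 2542 in the labelled BckdkM/M libraries, against 1114, 5.83 and 2642 in wild-type testis. The exception was Actc1, with 197, 147 and 171 in the labelled BckdkM/M libraries, against 241, 229 and 219.6 in wild-type testis. Of 6 slow counterparts tested in testis, Actn2 and Atp2a2 among them, 2 had a higher and 4 a lower mean, with a median of -0.09. The part of muscle RNA as a whole in the testis values was not tested.

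**Figure D5:**
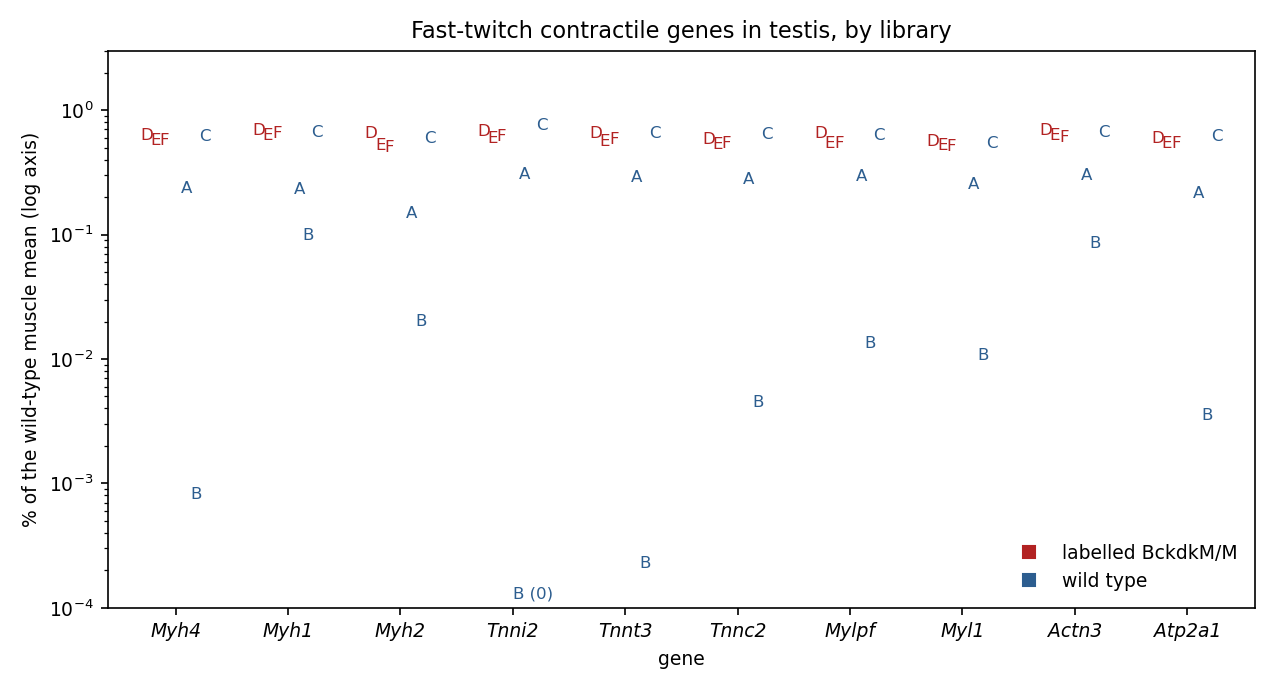
Normalised counts of the 10 genes in each testis library as a percentage of the wild-type muscle mean (log axis), with libraries D, E and F labelled BckdkM/M on the left and wild-type A, B and C on the right of each gene. Wild-type C sits with the labelled BckdkM/M libraries, A lower and B lowest, and B (0) marks Tnni2 at 0 reads.

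No gene of the 10 was called between the testis groups (limma, 19543 genes tested, of which 0.0205% were called), although 5 had an unadjusted p below 0.05, against 7.09% of all genes tested. All 10 had a higher mean in the libraries labelled BckdkM/M, against 59.6% of all genes tested, with a median log2 difference of 2.36 and limma adjusted p between 0.696 and 0.736. Without wild-type A and B, a comparison chosen after the values were seen in which C is assumed to vary like the other libraries, the median was -0.11. When wild-type C was left out instead, Myh1 was called, with a log2 difference of 2.09 (limma adjusted p = 0.0468, between 0.0468 and 1 over its alternatives). The genotype difference did not differ between muscle and testis at an adjusted p below 0.05 for any of the 10 (limma interaction over 14677 genes, of which 0.0136% were called). Unadjusted, 2 of the 10 were below 0.05, against 8.69% of all genes tested, and the median of the interaction was -2.48, which was -0.76 without wild-type testis B.

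Genes whose profile was most like the mean of the 10 over all 12 libraries were found among 2351 genes with a muscle mean of at least 1000. Likeness was the root mean square difference of centred log2 values, for which the candidates had a median of 3.77. Myoz1, a Z-disc protein of fast fibres, was closest at 0.10, followed by Mylk2 at 0.27. A930016O22Rik was next at 0.41, then Myot, a Z-disc protein, at 0.43 and Cacng1, a subunit of the calcium channel of the T-tubule, at 0.49. The 10 genes themselves lay between 0.19, for Tnnc2, and 1.10, for Myh1, from their own mean. Differences between tissues dominate this measure, since all these genes are high in muscle and low in testis.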

How the data were processed

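Build GRCm38.p4 and, with no role given, DESeq2 1.46.0, HTSeq 0.11.2, Picard 1.119, HISAT2 2.1.0 and fastp 0.23.4 are listed in the submitters' processing notes. The authors deposited signal values, which are counts scaled by a size factor for each library, and a second table of regularised log2 values. Divided by a step per library, the value of 1 read, 100% of the signal values were whole to within a tolerance, which gives the depth. The tolerance was 0.001 for small counts and grew in proportion for larger ones, so large counts were checked only loosely. Reads were 150 bases, per the labels' protocols. The members and gene lists were chosen with earlier results of these data known.

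Genotypes were compared with limma 3.58.1 (R 4.3.3; lmFit, eBayes with a trend) on log2(normalised count + 1), for genes with at least 10 in at least 3 of a tissue's 6 libraries. Shares and ratios were tested by exact permutation with scipy 1.17.1. Alternatives were pseudocounts 0.5 and 8, a minimum mean of 50 or none, scaling by median of ratios or TMM, the rlog values, 1 model of all libraries, edgeR 4.0.16 and DESeq2 1.42.0 on recovered reads, and leaving out libraries. In testis, edgeR and DESeq2 were not run. In 1 testis library, 26 values turned into dates were treated as missing. No batch is given by the labels used here. Named genes are the 10, the 8 slow counterparts, Bckdk, at most 4 genes with the smallest muscle p per other list in the report, and the 5 most alike, with Ckm and Acta1 added after their values were seen; 1 gene that the rule names is not reported here. Scripts were tested on simulated data.

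Mouse numbers pair muscle and testis of 5 animals. Deviations from the group means correlated between the tissues of an animal at between -0.04 and 0.01 over 14677 genes.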

Additional observations from a re-analysis of the deposited data

How the results depend on the processing

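None of the 10 genes was called in muscle under any of 17 alternatives. The median muscle log2 change lay between -0.25 and 0.03 over them (0.03 without F and G, chosen with earlier results of these data known), and between -0.25 and -0.01 with single libraries left out. The number called over all genes in muscle was 6, and 3 to 497 with single libraries left out, 36 by DESeq2, 28 in 1 model of all libraries and 14 without a filter. In testis 4 genes were called over all genes and 1 to 6 under the alternatives. Leaving out single testis libraries gave 0 to 1 of the 10 called and a median of 0.52 to 3.60. The testis median was -0.11 without wild-type A and B, an alternative chosen after seeing the data, because wild-type B and A are the low libraries. Between wild-type tissues the median was 6.29 on the rlog values, whose shrinkage pulls in low counts, and 7.92 to 11.11 with single libraries left out, with 10 called each time. The interaction median lay between -3.72 and -0.76 with single libraries left out. The Myh4 share differed by -3.11 to -0.70 points, and the mean fast over slow ratio by -2.75 to -1.17, with single libraries left out.

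With the mouse number as a replicate block, 10 of 10 were called between wild-type tissues (median 9.88), and 0 in the interaction (median -2.48), so the block changed no call. Within a tissue the genotypes were compared unpaired, because each column there carries a different mouse number. Depth was even between libraries, and near-0 testis counts limit what testis B can show.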

Other observations

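Genes of immature or denervated fibres were also measured in muscle. Myl4, an embryonic light chain, had a log2 change of 0.93 and Myh3, the embryonic heavy chain, of 1.06 in BckdkM/M muscle (limma adjusted p = 0.519 each), while Myh8 had 0.08. The 3 genes summed to 354 to 486 normalised counts in BckdkM/M muscle, against 274 to 392 in wild-type muscle, far below Myh4. In 2 of the 3 the groups did not overlap, against 14.0% of all genes tested. Unadjusted limma p was below 0.05 for 2 of the 3, against 9.52% of all genes tested. Of 9 measured neuromuscular and denervation genes, 5 had a higher and 4 a lower mean, and none was called. Over all genes tested, 55.5% had a lower mean. The log2 changes of the 9 genes lay between -0.31 and 0.91, with a median of 0.34. Chrnb1, an acetylcholine receptor subunit, had a log2 change of 0.63 (limma adjusted p = 0.450), and Runx1, a transcription factor induced by denervation, of 0.91 (limma adjusted p = 0.519).

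Of the other lists, none had a gene called in muscle. All 8 tendon genes had a higher mean in BckdkM/M muscle, with a median log2 change of 0.72. All 5 erythroid genes were higher on average, with a median of 0.68, and in 4 of them the groups did not overlap, against 14.0% of all genes tested. The medians were 0.14 for 7 endothelial genes, 0.14 for 8 macrophage genes, 0.04 for 6 smooth muscle genes and -0.02 for 5 cardiac genes. Germ cell genes had a median of -0.77 over 13, Leydig genes of -0.55 over 4 and Sertoli genes of -0.20 over 2.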
